A study of Bos taurus with 16 samples.

Results

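Interferon-stimulated genes were followed in the livers of 16 Angus steers. The set is a list of 39 genes that type I interferons are known to induce, taken by gene symbol and drawn up with earlier results of these data known. A member counted as measured when a probe set of the array carried its symbol alone, and 30 of the 39 did, each through 1 probe set, among 18010 genes so named and 26773 probe sets in all. RIGI, an RNA sensor, entered the list under its older symbol DDX58. IRF1, OAS1X, GBP4 and PARP9 appear only on probe sets whose annotation lists more than 1 gene entry, and IFI16, IFIT1, BST2, IFI44L and SP110 were not analysed here. The groups were 8 growing steers and 8 finishing steers. Weaned animals of 209 ± 29.4 kg body weight were allotted at random to either phase and fed singly on a diet built on cotton seed hulls. Growing steers ended at 301 kg and finishing steers at 576 kg, both gaining 1.5 kg a day, so weight, age and days on feed differ together between the groups. All animals were male, and no genotype, drug or infection status is given. Each array gives a log2 signal for every probe set, with array medians that lay between 5.57 and 5.64. Signals of 11 measured hepatocyte markers averaged 12.3 to 12.4 in growing and 12.2 to 12.5 in finishing livers, and 0 of the 11 passed the test between phases.

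Interferons are cytokines released when a cell senses foreign or misplaced nucleic acid. Type I interferons bind a receptor of the subunits IFNAR1 and IFNAR2, and the kinases JAK1 and TYK2 then activate STAT2, which joins IRF9 in the transcription complex ISGF3. That complex switches on the genes described here, which encode sensors, enzymes that block viral replication, and regulators that feed back on the pathway. In liver, hepatocytes, Kupffer cells and endothelial cells all respond to interferon. Whole liver was measured, so fewer cells of a type and less RNA per cell cannot be told apart.

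The interferon-stimulated genes were lower on balance in finishing than in growing livers, and the steers within each phase differed widely. IFI6, LGALS3BP, IFIH1, SAMD9, XAF1, IRF9 and HERC6 fell, and 0 members rose. By limma, at a Benjamini-Hochberg adjusted p under 0.05 across the whole array, 7 of the 30 measured members were lower (23.3%). The same test called 4.3% of all probe sets lower and 2.34% higher, and 5.66% of all named genes lower and 2.7% higher. The difference, finishing minus growing, was negative for 25 of 30 members (83.3%), against 46.9% of all named genes. Its median over the members was -0.40 on the log2 scale, against 0.012 over all named genes. At an unadjusted p under 0.05 stood 18 of 30 members, 17 of them lower, against 21.6% of all probe sets. Most members varied in parallel over the same steers, and the list was drawn up with earlier results known. These shares are therefore descriptions and not 30 separate observations. Only LGALS3BP had all 8 finishing steers below all 8 growing steers, a pattern that 0.717% of all probe sets showed.

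**Figure D1:**
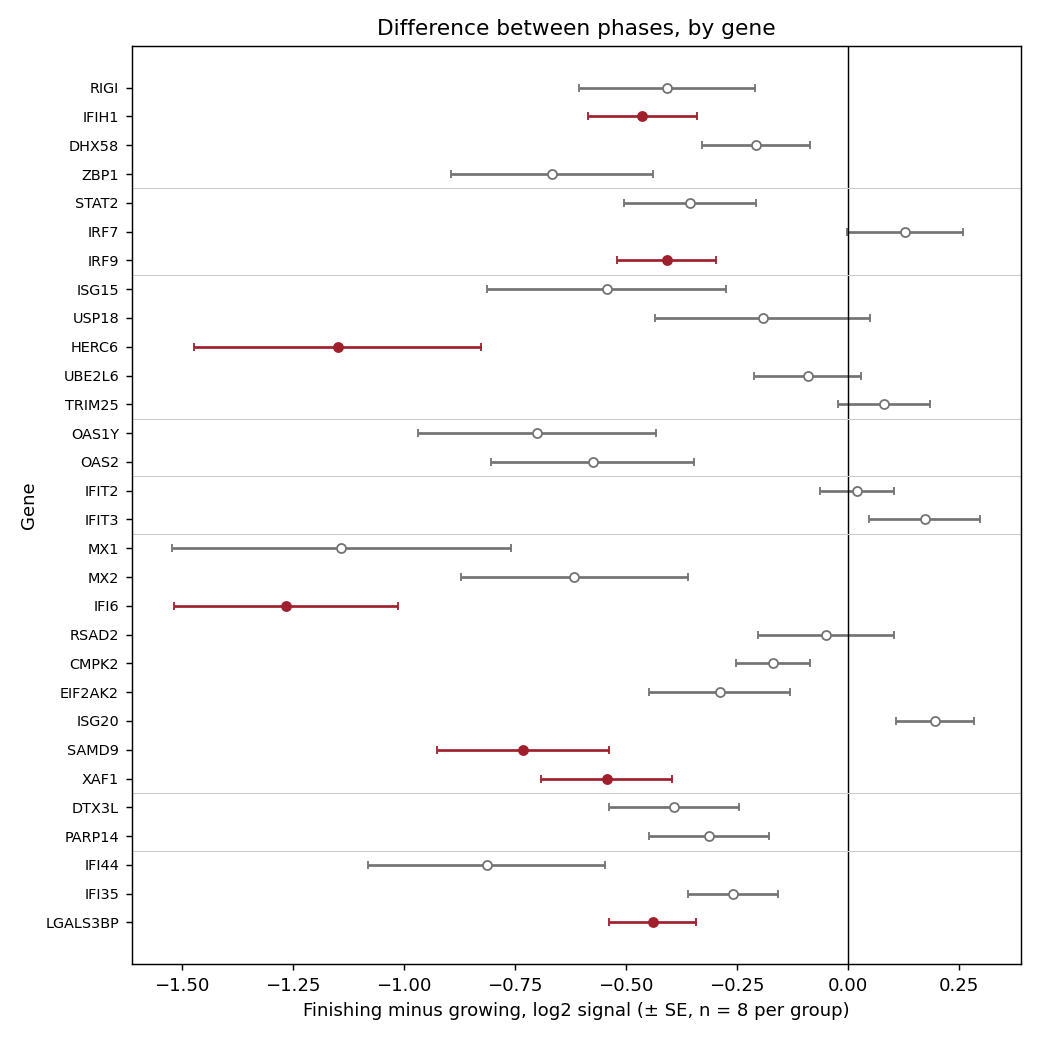
Difference between finishing and growing steers for the 30 measured interferon-stimulated genes, ordered by role. The x axis is the difference in log2 signal, points are fitted differences and bars their SE (n = 8 per group), and filled red points passed the test. The 7 filled points lie between -1.27 and -0.41, and 5 open points lie above 0.

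Among the nucleic acid sensors 1 of 4 measured members fell, with a median difference of -0.43, where 5.66% of all named genes fell. A single call is not read as a fall of the group. IFIH1, the sensor MDA5 of long double-stranded RNA, read 8.53, 7.81, 7.65, 8.33, 7.64, 7.77, 8.07 and 7.98 in growing replicates 1 to 8. In finishing replicates 1 to 8 it read 7.38, 7.44, 7.72, 7.56, 7.64, 7.52, 7.64 and 7.19. Both groups overlapped only between 7.64 and 7.72, with 6 finishing steers below every growing steer. IFIH1 fell by 0.46 ± 0.12 in log2 signal (difference ± its SE over 8 steers a group, as for all differences here), and was 1.38-fold higher in growing steers, the direction of all folds given here (adjusted p = 0.0304). RIGI, the sensor of RNA with a triphosphate end, ranged from 7.05 to 8.71 in growing and 7.01 to 7.78 in finishing steers, a difference of -0.41 ± 0.20 (adjusted p = 0.248). ZBP1, which senses left-handed nucleic acid, differed by -0.67 ± 0.23 (adjusted p = 0.092). It ranged from 7.12 to 8.82 in growing and 6.69 to 7.94 in finishing steers, and 4 growing steers exceeded all finishing steers. DHX58, the regulator LGP2 of both RNA sensors, ranged from 6.42 to 7.50 in growing and 6.396 to 6.97 in finishing steers and differed by -0.21 ± 0.12 (adjusted p = 0.348).

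Of the transcription factors, IRF9 fell and STAT2 and IRF7 did not pass. IRF9, the DNA-binding part of ISGF3, read 8.20, 7.75, 7.65, 7.97, 7.56, 7.56, 7.76 and 8.19 in growing replicates 1 to 8. In finishing replicates 1 to 8 it read 7.32, 7.07, 7.61, 7.40, 7.62, 7.31, 7.66 and 7.40. Growing replicates 1, 2, 4, 7 and 8 lay above all finishing steers. IRF9 fell by 0.41 ± 0.11 (SE, 1.33-fold, adjusted p = 0.0354). STAT2, its partner in ISGF3, read 9.90, 9.66, 9.61, 9.60, 9.86, 9.29, 9.68 and 9.84 in growing replicates 1 to 8, and 9.92, 9.77, 9.43, 9.03, 8.87, 8.82, 9.52 and 9.25 in finishing replicates 1 to 8. Here the finishing steers were the more spread group, with replicate 1 just above every growing steer, replicate 2 inside the growing range, and replicates 5 and 6 at the bottom. STAT2 differed by -0.36 ± 0.15 (adjusted p = 0.169). IRF7, which amplifies interferon alpha production, read 5.89, 5.28, 5.30, 5.67, 5.68, 5.02, 5.98 and 5.89 in growing replicates 1 to 8, and 5.43, 5.64, 5.89, 6.03, 5.66, 5.61, 5.77 and 5.74 in finishing replicates 1 to 8. The lowest finishing value of IRF7 exceeded 3 growing steers and the highest exceeded all of them, and the difference was 0.13 ± 0.13 (adjusted p = 0.619). The probe set of IRF1, a factor induced by interferon gamma, lists that symbol under 2 gene entries and was kept out of the 30. It read 7.12, 6.84, 7.001, 7.67, 7.23, 7.23, 7.20 and 7.24 in growing replicates 1 to 8, and 6.69, 6.17, 7.08, 6.82, 7.39, 6.37, 6.74 and 6.59 in finishing replicates 1 to 8. Its difference was -0.46 ± 0.15 (adjusted p = 0.0733), with 6 finishing steers below every growing steer and finishing replicates 3 and 5 above the lowest growing steer.

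ISG15 is a ubiquitin-like protein that is attached to other proteins with the help of the conjugating enzyme UBE2L6 and HERC family ligases, and removed by USP18. In this system 1 of 5 members fell, where 5.66% of all named genes fell, and the single call is not read as a fall of the system. HERC6, a member of that ligase family, read 8.49, 6.94, 6.56, 8.32, 6.27, 6.33, 7.25 and 7.82 in growing replicates 1 to 8. In finishing replicates 1 to 8 it read 5.47, 5.93, 6.30, 6.08, 6.85, 6.02, 6.68 and 5.46. Growing replicates 1, 4 and 8 stood well above the rest, while replicates 3, 5 and 6 lay inside the finishing range. HERC6 fell by 1.15 ± 0.32 (SE, 2.22-fold, adjusted p = 0.0415). ISG15 itself ranged from 5.89 to 8.10 in growing and 5.48 to 6.66 in finishing steers, with growing replicate 1 at the top. It differed by -0.54 ± 0.27 (adjusted p = 0.254). USP18, which also dampens receptor signalling, ranged from 6.60 to 8.72 in growing and 6.92 to 7.87 in finishing steers and differed by -0.19 ± 0.24 (adjusted p = 0.705). UBE2L6 ranged from 7.22 to 7.93 in growing and 7.12 to 7.94 in finishing steers, and TRIM25 from 8.74 to 9.29 in growing and 8.76 to 9.40 in finishing steers. The differences of UBE2L6, -0.09 ± 0.12, and of TRIM25, a ubiquitin ligase that activates RIGI, 0.08 ± 0.10, were smaller than their group SDs (adjusted p = 0.726 and 0.701).

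Among the other antiviral effectors 3 of 9 members fell and 0 rose, with a median difference of -0.54. Over all named genes 5.66% fell and 2.7% rose. Of the 3 calls, those of SAMD9 and XAF1 were lost in 9 and 7 of 16 fits that left out 1 array. IFI6, a small membrane protein that limits flavivirus replication in human cells, read 12.97, 12.39, 11.63, 13.07, 12.03, 12.50, 12.16 and 12.55 in growing replicates 1 to 8. In finishing replicates 1 to 8 it read 10.50, 11.17, 11.34, 11.90, 11.02, 10.47, 12.12 and 10.64. Finishing replicates 4 and 7 were inside the growing range, and the other 6 lay below every growing steer. IFI6 averaged 12.4 ± 0.48 over the growing steers and 11.1 ± 0.62 over the finishing steers (mean ± SD of 8 each). It fell by 1.27 ± 0.25 (SE, 2.41-fold, adjusted p = 0.00763), the largest difference of the 30 members.

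SAMD9, a restriction factor of poxviruses in human cells, read 8.78, 8.33, 8.64, 8.91, 8.50, 8.74, 7.80 and 8.48 in growing replicates 1 to 8. In finishing replicates 1 to 8 it read 7.46, 7.68, 8.30, 8.68, 7.85, 7.13, 7.61 and 7.62. Growing replicate 7 was the lowest of its group, and finishing replicates 3, 4 and 5 lay above it. The other 5 of 8 finishing steers lay below every growing steer. SAMD9 fell by 0.73 ± 0.19 (SE, 1.66-fold, adjusted p = 0.0306). XAF1, a pro-apoptotic protein, read 5.77, 5.22, 5.19, 5.88, 5.24, 5.29, 5.43 and 5.99 in growing replicates 1 to 8, and 4.84, 4.78, 4.76, 5.47, 5.18, 4.47, 5.08 and 5.08 in finishing replicates 1 to 8. Only finishing replicate 4 reached the growing range. XAF1 fell by 0.54 ± 0.15 (SE, 1.46-fold, adjusted p = 0.0341).

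The dynamin-like GTPases MX1 and MX2, which trap viral ribonucleoproteins, differed by -1.14 ± 0.38 and -0.62 ± 0.26 (adjusted p = 0.0836 and 0.168). MX1 averaged 9.04 ± 0.88 over the growing steers and 7.90 ± 0.82 over the finishing steers (mean ± SD of 8 each), and its lowest finishing steer, replicate 1 at 6.74, and highest growing steer, replicate 1 at 10.39, were the extremes of a broad overlap. MX2 ranged from 6.52 to 8.23 in growing and 5.79 to 7.35 in finishing steers. EIF2AK2, the kinase PKR that halts translation, ranged from 8.65 to 9.95 in growing and 8.73 to 9.33 in finishing steers and differed by -0.29 ± 0.16 (adjusted p = 0.316). CMPK2, a mitochondrial nucleotide kinase, and RSAD2, the radical enzyme viperin, lie next to each other in the RefSeq gene order. CMPK2 ranged from 7.66 to 8.22 in growing and 7.49 to 7.92 in finishing steers, and RSAD2 from 6.54 to 7.58 in growing and 6.70 to 7.52 in finishing steers. They differed by -0.17 ± 0.08 and -0.05 ± 0.15 (adjusted p = 0.253 and 0.895). ISG20, an exonuclease, had a positive difference, 0.20 ± 0.09 (adjusted p = 0.206), at signals from 3.87 to 4.50 in growing and 4.29 to 4.70 in finishing steers, near the low end of the scale.

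The oligoadenylate synthetases make the messenger that activates RNase L. OAS1Y ranged from 8.34 to 10.32 in growing and 7.85 to 9.13 in finishing steers, and OAS2 from 4.83 to 6.70 and 4.26 to 5.56. They are neighbours in the RefSeq gene order and differed by -0.70 ± 0.27 and -0.58 ± 0.23 (adjusted p = 0.132 and 0.146). OAS1 copies are close relatives in cattle, and a probe set may read more than 1 of them. IFIT2 and IFIT3, antiviral proteins with tetratricopeptide repeats, also lie side by side, and 0 of the 2 passed. IFIT2 ranged from 3.88 to 4.25 in growing and 3.77 to 4.40 in finishing steers, and IFIT3 from 4.57 to 5.31 in growing and 4.75 to 5.69 in finishing steers. Their differences were 0.02 ± 0.08 and 0.17 ± 0.12 (adjusted p = 0.914 and 0.456). OAS2, IFIT2, IFIT3, ISG20 and XAF1 had means below the median probe set mean of 5.595. IFIT5, from the same gene cluster but not in the list of members, fell by 0.63 ± 0.16 (adjusted p = 0.0277).

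DTX3L, a ubiquitin ligase that acts with PARP9, and its neighbour PARP14, a mono-ADP-ribosyltransferase, differed by -0.39 ± 0.15 and -0.31 ± 0.14 (adjusted p = 0.122 and 0.188). DTX3L ranged from 7.51 to 8.56 in growing and 7.01 to 7.80 in finishing steers, and PARP14 from 8.15 to 9.08 in growing and 7.94 to 8.51 in finishing steers. LGALS3BP, a secreted galectin-binding glycoprotein, read 10.41, 9.997, 10.10, 10.33, 9.99, 10.14, 10.16 and 10.34 in growing replicates 1 to 8. In finishing replicates 1 to 8 it read 9.80, 9.95, 9.84, 9.95, 9.25, 9.63, 9.67 and 9.86. The lowest growing and the highest finishing steers were 9.99 and 9.95, so the groups did not overlap. LGALS3BP fell by 0.44 ± 0.10 (SE, 1.36-fold, adjusted p = 0.0134). IFI44, a GTP-binding antiviral protein, differed by -0.81 ± 0.27 (adjusted p = 0.0784), at signals from 6.37 to 8.25 in growing and 5.46 to 7.28 in finishing steers. IFI35, a leucine zipper protein, differed by -0.26 ± 0.10 (adjusted p = 0.144), at signals from 5.83 to 6.50 in growing and 5.50 to 6.08 in finishing steers.

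**Figure D2:**
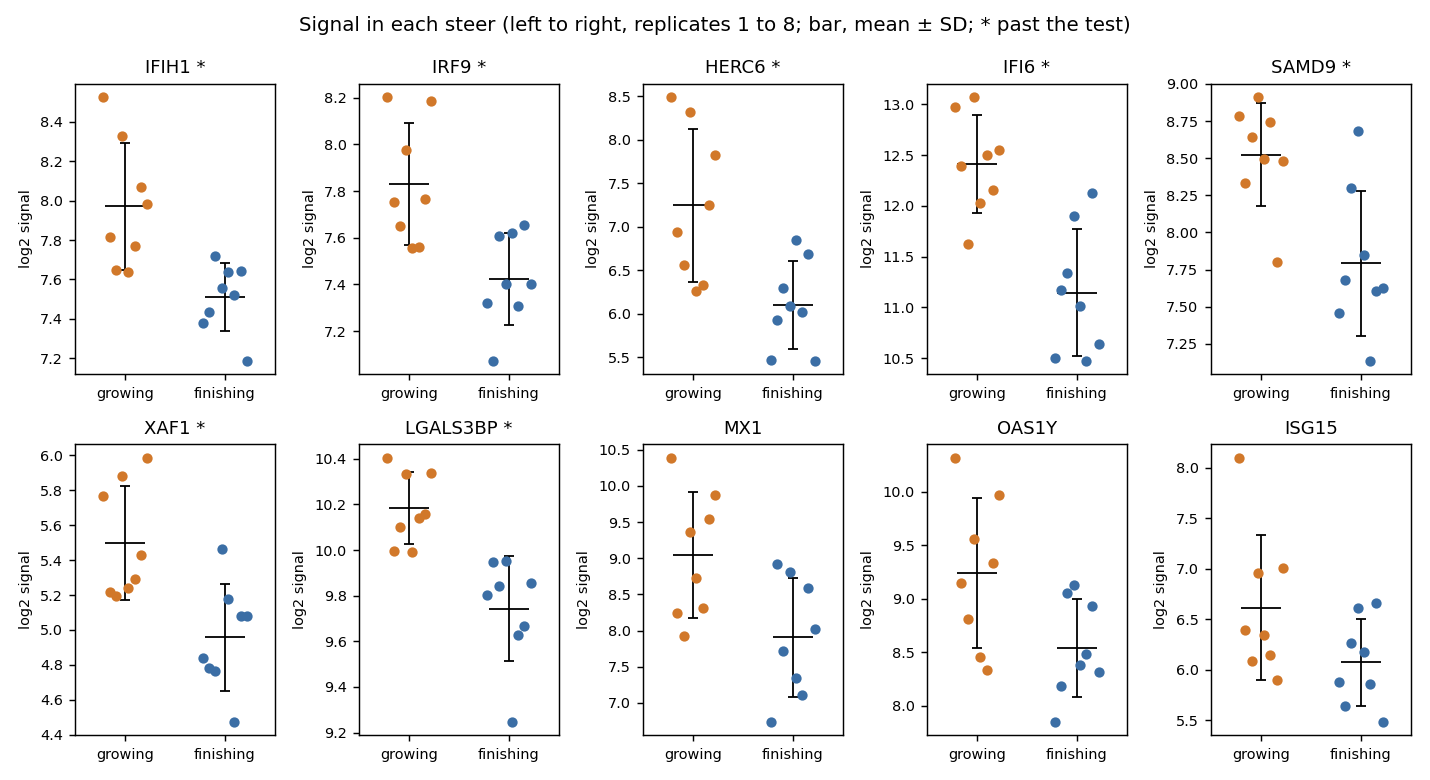
Log2 signal of the 7 members that passed the test (marked with a star) and of MX1, OAS1Y and ISG15 in each steer. Points are steers, replicates 1 to 8 from left to right, and bars are the mean ± SD (n = 8 per group). LGALS3BP is the panel without overlap, and ISG15 reaches 8.10 in growing replicate 1.

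The calls of IFI6 and LGALS3BP held in all 16 fits that left out 1 array, with highest adjusted p values of 0.0179 and 0.03 by limma. The other 5 lay close to the threshold. The call was lost in 6 of 16 such fits for IFIH1, 7 for XAF1, 9 for SAMD9, 10 for IRF9 and 10 for HERC6, with highest adjusted p values of 0.0627, 0.0672, 0.0596, 0.0701 and 0.081. All of these differences stayed negative. The number of members lower fell to 2 without growing replicate 4 or 8 or finishing replicate 2 or 6, and to 3 without growing replicate 1 or 7 or finishing replicate 1 or 8. It was 9 without growing replicate 3. Without both finishing replicates 5 and 6, the arrays that correlated least with their own group, it was 2, IFI6 and LGALS3BP.

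The same few growing steers held the high values in most members. Growing replicate 1 held the highest growing value in 22 of the 30 members, replicate 4 in 5, replicates 2, 7 and 8 in 1 each, and replicates 3, 5 and 6 in 0. Growing replicate 1 was among the top 3 growing steers in 28 members, replicate 8 in 25, replicate 4 in 22 and replicate 7 in 8, against 1 or 2 members for each of the other 4. Over all named genes each growing steer was in the top 3 for 33.6% to 40.8%. Growing replicate 6 held the lowest growing value in 12 members and replicate 3 in 8.

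Counted against the finishing steers, the same animals stood out. Growing replicate 1 lay above the highest finishing steer in 23 of 30 members, replicate 8 in 21, replicate 4 in 20 and replicate 7 in 12. The counts were 6 for replicate 2, 4 for replicate 6, 2 for replicate 5 and 1 for replicate 3. Over all named genes this share was 12.2% to 16% in each growing steer. The mean signal of the 30 members was 8.15, 7.36, 7.24, 7.79, 7.32, 7.17, 7.51 and 7.83 in growing replicates 1 to 8. It was 6.88, 7.05, 7.31, 7.40, 7.12, 6.98, 7.44 and 6.95 in finishing replicates 1 to 8. Growing replicates 2, 3, 5 and 6 thus lay inside the finishing range.

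Finishing steers also differed among themselves, over a narrower range. Finishing replicate 7 was among the top 3 finishing steers in 25 members, replicate 4 in 21 and replicate 3 in 17. Over all named genes each finishing steer was in the top 3 for 34.2% to 42.2%. Finishing replicate 8 held the lowest finishing value in 10 members and replicate 1 in 9. Replicates 1, 8 and 2 lay below the lowest growing steer in 18, 17 and 16 members, and replicate 7 in 3. The matching share over all named genes was not counted, so these numbers have no background to be set against. The mean of the members averaged 7.55 ± 0.345 over the growing and 7.14 ± 0.215 over the finishing steers (mean ± SD of 8 each).

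**Figure D3:**
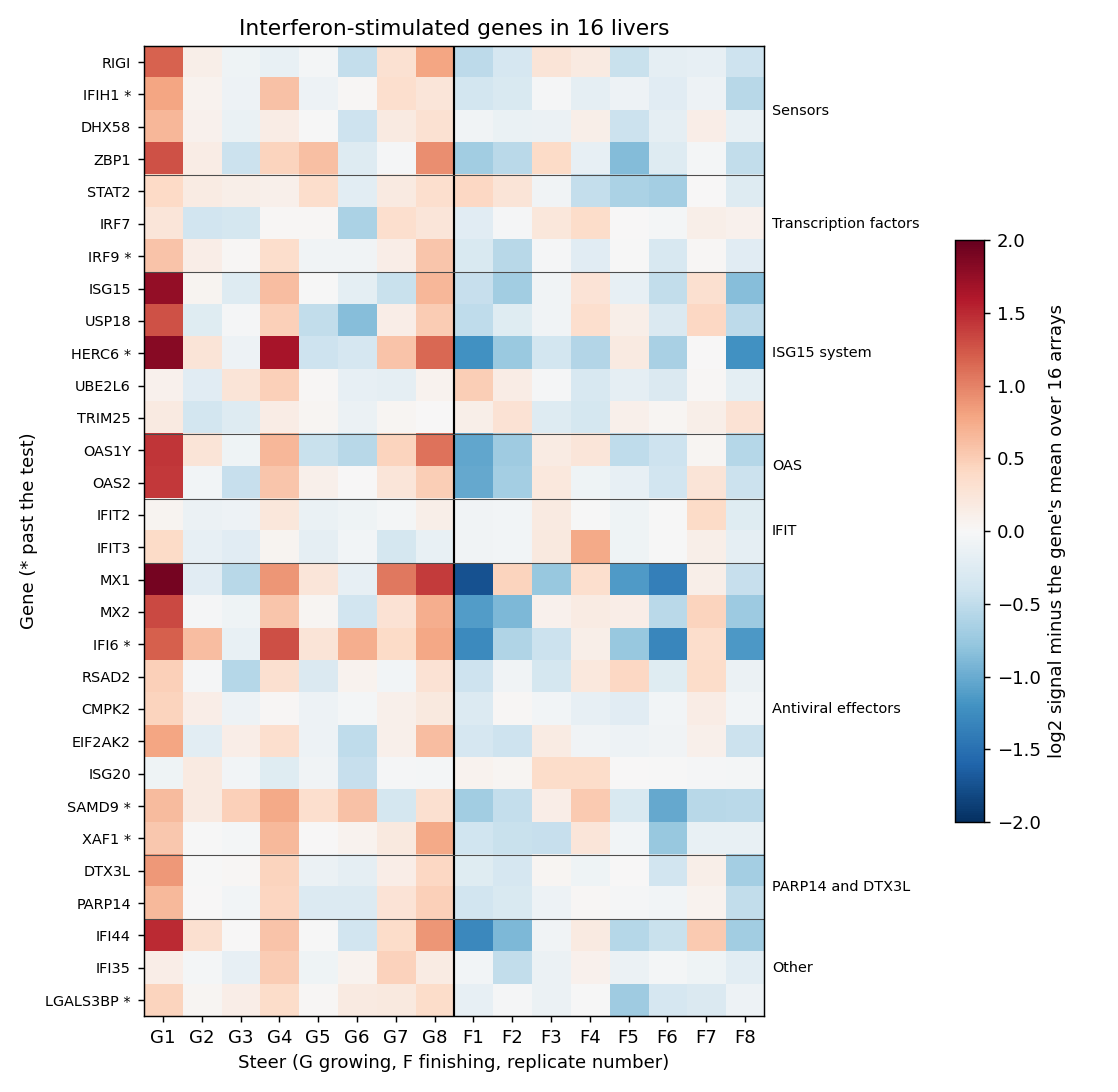
Signal of the 30 measured interferon-stimulated genes (rows, grouped by role) in 16 steers (columns, growing G1 to G8 and finishing F1 to F8). Colour is the log2 signal minus the gene's mean over all arrays, red above and blue below, and a star marks genes past the test. Columns G1, G4, G7 and G8 are red in most rows. Columns F1, F2, F5, F6 and F8 are blue in most, and so are the growing columns G3, G5 and G6.

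The SD among growing steers exceeded that among finishing steers in 20 of 30 members (66.7%), against 39.2% of all probe sets. The median ratio of the growing to the finishing SD was 1.30 over the members and 0.88 over all probe sets. The widest growing spreads were those of HERC6, MX1, ISG15, OAS1Y and USP18, with SDs of 0.88, 0.88, 0.72, 0.70 and 0.66. In finishing steers the same genes had 0.51, 0.82, 0.43, 0.45 and 0.36. STAT2, IFI6, SAMD9 and LGALS3BP were among the 10 members with the larger SD in finishing steers. A limma fit to the absolute deviations from the group median called 0 of the 30 members and 0 of 26773 probe sets for unequal spread. At an unadjusted p under 0.05 it marked 1 member, STAT2 (wider in finishing steers), and 4.79% of all probe sets. The wider spread of most members among growing steers was therefore not shown by a test of single genes.

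**Figure D4:**
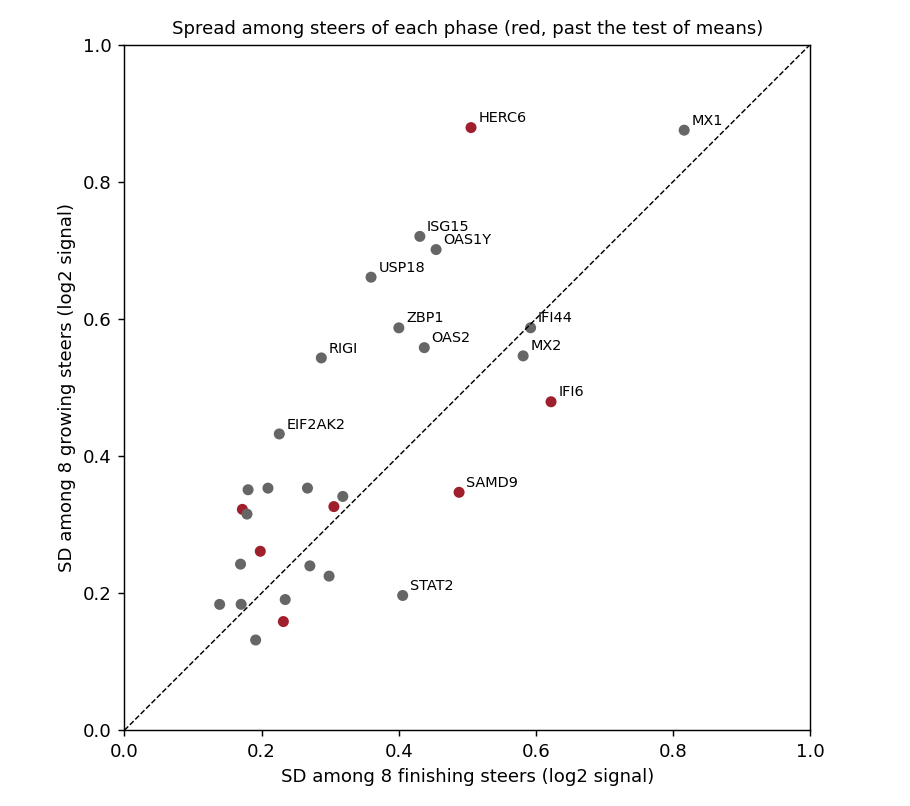
Spread of each measured interferon-stimulated gene among growing steers (y axis) and finishing steers (x axis), as the SD of the log2 signal over 8 animals. The dashed line marks equal spread, red points passed the test of means, and genes with an SD above 0.4 in either phase are named. Of the 30 points 20 lie above the line, with HERC6 highest at 0.88.

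Most members varied in parallel from steer to steer within a phase. After each group's mean was taken off, the correlation of a member with the mean of the other 29 over the 16 arrays had a median of 0.76. It exceeded 0.7 for 20 of 30 members, against 32 of 17980 other named genes (0.178%) set against the mean of all members. These are descriptions over arrays that every gene shares, and are not tests. OAS1Y (0.93), USP18 (0.93), IFI44 (0.91) and MX2 (0.91) followed the common course most closely, and none of the 4 passed the test between phases. UBE2L6 (0.05), TRIM25 (0.09), STAT2 (0.12), ISG20 (0.25) and SAMD9 (0.36) followed it least. LGALS3BP, the member without overlap between the phases, had 0.43, and IFI6 had 0.75.

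The 10 other named genes most like the mean of the members by this measure were ZNFX1, RTP4, PARP12, UBA7, EPSTI1, LOC100298356, LOC510377, IFI27, LOC100139670 and TENT2. Their correlations ran from 0.89 for ZNFX1, an RNA sensor of the mitochondrial surface, to 0.82 for TENT2, a poly(A) polymerase. ZNFX1, RTP4, PARP12, EPSTI1 and IFI27 also stand in a wider list of interferon-induced genes, and UBA7 is the activating enzyme of ISG15. Between phases 3 of the 10 passed the test, all lower, where 5.66% of all named genes fell and 2.7% rose. These 10 were picked for their likeness to the members, so their calls are not separate from those of the members. RTP4 fell by 0.70 ± 0.17 and EPSTI1 by 0.65 ± 0.17 (adjusted p = 0.0194 and 0.027). IFI27, a mitochondrial membrane protein, had the largest difference of the 10, -1.57 ± 0.49, but with adjusted p = 0.0644. LOC510377 fell by 0.36 ± 0.09 (adjusted p = 0.0201). ZNFX1 and PARP12 differed by -0.25 ± 0.17 and -0.41 ± 0.13 (adjusted p = 0.424 and 0.0694). LOC100298356, the 1 gene of the 10 with a positive difference, and LOC100139670 differed by 0.02 ± 0.25 and -0.55 ± 0.31 (adjusted p = 0.977 and 0.317). UBA7 and TENT2 differed by -0.23 ± 0.18 and -0.11 ± 0.06 (adjusted p = 0.516 and 0.31).

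In that wider list of 48 interferon-induced genes outside the members, 13 of 35 measured genes fell and 0 rose, with a median difference of -0.38. Over all named genes 5.66% fell and 2.7% rose. LGALS9, a galectin, fell by 0.48 ± 0.09, TNFSF10, the death ligand TRAIL, by 0.67 ± 0.13, and PML, which organises nuclear bodies, by 0.39 ± 0.08 (adjusted p = 0.00673, 0.00775 and 0.00873). LAMP3, a lysosomal membrane protein of activated dendritic cells, fell by 0.76 ± 0.16, SP100, a nuclear body protein, by 0.70 ± 0.16 and TRIM34 by 0.63 ± 0.14 (adjusted p = 0.00944, 0.0145 and 0.0146). LGALS9 and PML lay lower in finishing steers without overlap between the phases, a pattern that 0.717% of all probe sets showed. HERC5, the neighbour of HERC6 and of the same family, fell by 0.64 ± 0.15 (adjusted p = 0.019). Leaving out 1 array at a time gave 9 to 17 genes lower in this list.

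Immunoproteasome and class I loading genes, which interferons also induce, were lower in part. Of 11 measured genes 5 fell and 0 rose, against 5.66% and 2.7% of all named genes, with a median of -0.32. PSMB8 and PSMB10, catalytic subunits, fell by 0.69 ± 0.13 and 0.67 ± 0.13, and TAPBP, the peptide-loading chaperone tapasin, by 0.31 ± 0.06 (adjusted p = 0.00503, 0.00734 and 0.00464). PSME1, an activator of the proteasome, and B2M, the class I light chain, fell by 0.38 ± 0.07 and 0.32 ± 0.08 (adjusted p = 0.005 and 0.0181). PSMB8, PSME1 and TAPBP lay lower in finishing steers without overlap between the phases, as did 0.717% of all probe sets. Without finishing replicates 5 and 6 the adjusted p of B2M was 0.0594. The mean of the 11 genes ranged from 7.93 to 8.45 in growing and from 7.49 to 7.88 in finishing steers, without overlap. Growing replicate 1, the steer with the highest mean of the 30 members, had 8.06 here, below replicates 4 and 6.

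Upstream of these genes, no interferon passed the test, and the receptor subunits did not either. Of 19 interferon symbols 8 were measured, 0 of them rose or fell, and all 8 had means below the median probe set mean. IFNG, the type II interferon, ranged from 2.76 to 3.29 in growing and 2.52 to 3.31 in finishing steers, and IFNB1 from 2.12 to 2.58 and 2.08 to 2.80. Without detection calls, an undetected interferon transcript cannot be told apart from one at a steady low level. The type I receptor subunits IFNAR1 and IFNAR2 had differences of opposite sign, 0.39 ± 0.15 and -0.30 ± 0.15 (adjusted p = 0.149 and 0.253). Those of the type II receptor subunits IFNGR1 and IFNGR2 were -0.05 ± 0.09 and -0.01 ± 0.06 (adjusted p = 0.778 and 0.923).

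Of the 16 receptor, kinase and feedback genes measured, 3 fell and 0 rose, where 5.66% of all named genes fell and 2.7% rose. TYK2, the kinase on IFNAR1, fell by 0.30 ± 0.09, PTPN6, the phosphatase SHP1, by 0.39 ± 0.11, and PIAS1, a SUMO ligase, by 0.28 ± 0.08 (adjusted p = 0.0434, 0.033 and 0.0495). STAT3, a transcription factor of interleukin 6 signalling, had a difference of 0.39 ± 0.12 (adjusted p = 0.0661). Of the 16 genes of nucleic acid sensing and interferon induction 3 fell and 0 rose. TLR3, the endosomal sensor of double-stranded RNA, fell by 0.71 ± 0.16, TLR7, that of single-stranded RNA, by 0.32 ± 0.09, and IRF3, which switches on interferon beta, by 0.26 ± 0.08 (adjusted p = 0.0134, 0.0471 and 0.0456). None of these 6 genes passed once finishing replicates 5 and 6 were left out, and without 1 array at a time 0 to 2 of the receptor list and 1 to 3 of the induction list were lower. In those fits 0 to 1 gene of the receptor list was higher, and under quantile normalisation 1 was. TLR3 passed in all 16 fits without 1 array, with a highest adjusted p of 0.028, while the call of IRF3 was lost in 12 of them. IRF3 lay lower in finishing steers without overlap between the phases, as did 0.717% of all probe sets.

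Some immune cell markers fell in finishing livers beside the interferon-stimulated genes, and 1 rose. By the same test 5.66% of all named genes fell and 2.7% rose. A single call among 9 or 10 markers is therefore not read as a fall of that list. Of 19 measured T and NK lymphocyte markers 8 fell and 0 rose, among them NCR1, KLRB1 and CD3D, by 0.32 ± 0.05, 0.72 ± 0.13 and 0.96 ± 0.17 (adjusted p = 0.00297, 0.00457 and 0.00462). Of 15 Kupffer cell and macrophage markers 7 fell and 0 rose, among them CSF1R, TIMD4 and AIF1, by 0.72 ± 0.14, 0.71 ± 0.17 and 0.59 ± 0.16 (adjusted p = 0.00763, 0.0174 and 0.0372). That count was 2 to 10 when 1 array was left out, and 1 when finishing replicates 5 and 6 were. The median of the macrophage list was -0.46, with 13 of 15 differences negative. CD163 and MARCO had positive differences, 0.48 ± 0.23 and 0.10 ± 0.34 (adjusted p = 0.244 and 0.9). CLEC4F and CD5L differed by -0.08 ± 0.12 and -0.10 ± 0.11 (adjusted p = 0.776 and 0.669). Of 9 dendritic cell markers XCR1 and TCF4 fell, by 0.42 ± 0.08 and 0.45 ± 0.08, and CD1E rose by 0.51 ± 0.11 (adjusted p = 0.00869, 0.00316 and 0.0114). Of 9 B and plasma cell markers CD79A fell, by 0.61 ± 0.09 (adjusted p = 0.00135). Of 10 genes listed as neutrophil markers, without a check of which cells express them here, FCGR3A fell. Its difference was -0.64 ± 0.16 (adjusted p = 0.0233, and 0.0753 once finishing replicates 5 and 6 were left out). The median of the neutrophil list was 0.008, with 5 of 10 differences negative, and S100A12, S100A8 and S100A9, which encode granulocyte calcium-binding proteins, differed by 0.59 ± 0.20, 0.22 ± 0.11 and 0.17 ± 0.09 (adjusted p = 0.0926, 0.236 and 0.275). The mean of the lymphocyte markers ranged from 5.42 to 5.97 in growing and 5.09 to 5.53 in finishing steers, and that of the macrophage markers from 8.76 to 9.43 and 8.07 to 9.12. The part of these cells in the difference between phases was not tested.

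Among growing steers the order of the marker means differed from that of the interferon-stimulated genes. Growing replicate 1, highest for the members, had the lowest lymphocyte mean of its group, 5.42, and a macrophage mean of 8.98. Growing replicate 6, lowest for the members, had the second highest of both, 5.90 and 9.20. Growing replicate 4 was high in all, at 7.79 for the members, 5.97 for lymphocyte and 9.43 for macrophage markers. The macrophage means of growing replicates 1 to 8 were 8.98, 8.76, 8.88, 9.43, 8.78, 9.20, 8.92 and 9.13. Replicates 1, 4, 7 and 8, the highest for the members, thus all lay above replicates 2, 3 and 5, and replicate 6 was the exception. The lymphocyte means were 5.42, 5.56, 5.60, 5.97, 5.46, 5.90, 5.81 and 5.63. A relation between the marker means and the members was not tested.

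**Figure D5:**
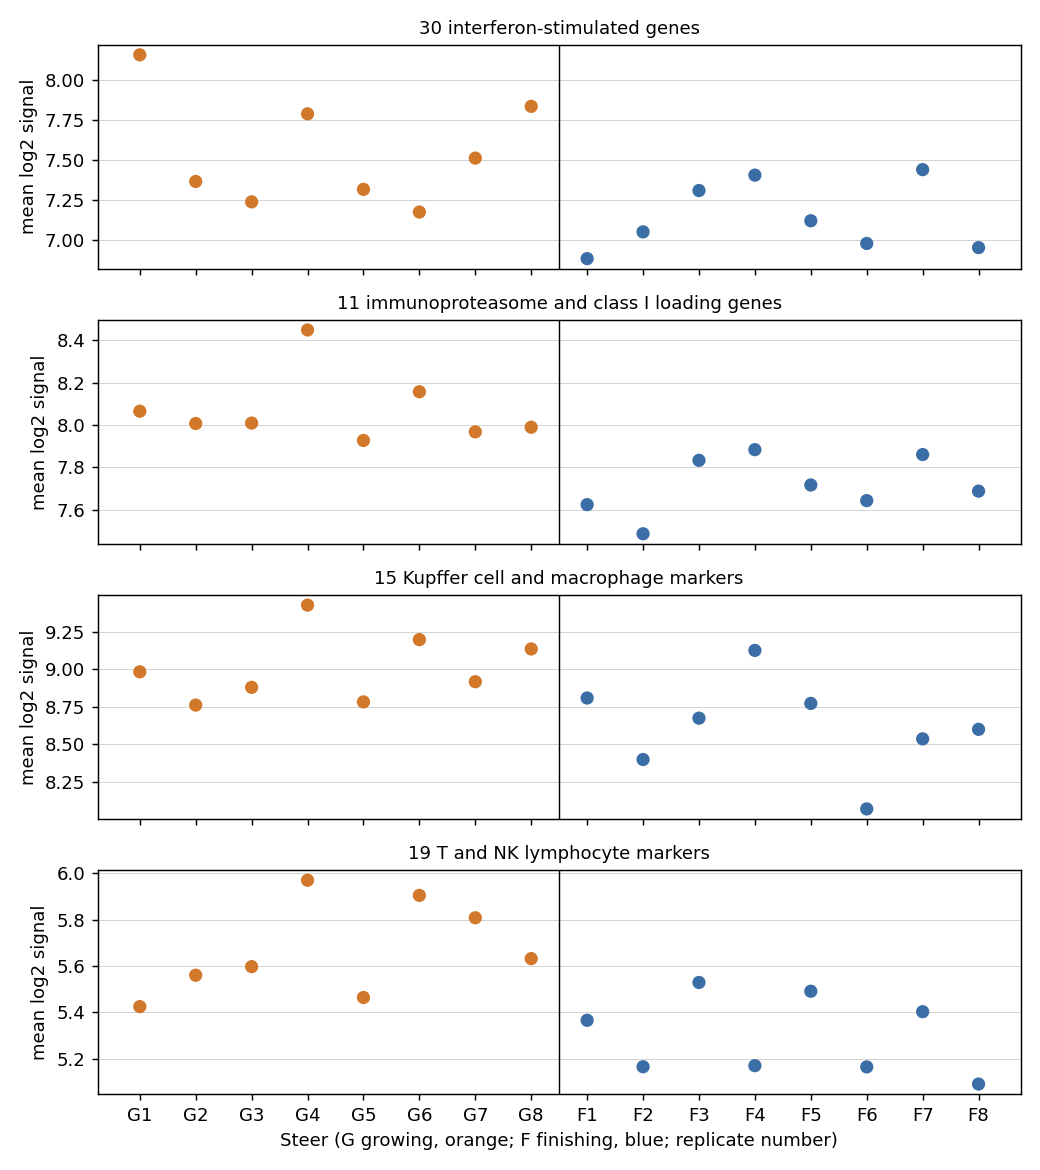
Mean log2 signal of the 30 interferon-stimulated genes, of 11 immunoproteasome and class I loading genes, and of macrophage and lymphocyte markers in each of 16 steers (growing orange, finishing blue). The class I means of the phases do not overlap, while the means of interferon-stimulated genes do. Growing replicate 1 is highest in the top panel at 8.15 and lowest of the growing steers in the bottom panel at 5.42.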

How the data were processed

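Liver RNA of 16 steers, 8 per phase, was measured with 1 array per animal. The deposited table holds log2 signals, a scale read from the range of its values, which were used unchanged. GCOS 1.2 and Partek 6.4 appear in the submitters' processing notes, with no role stated. How probes were summarised and normalised is not given in the sources used. Groups came from the sample titles, and 0 pairs of arrays were identical. Gene names came from the platform annotation, in which 18457 probe sets had 1 symbol, 688 several and 7628 none. The RefSeq gene table served only for gene names and gene order.

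Phases were compared in R 4.3.3 by a linear model with moderated variances (limma 3.58.1, 2-sided), adjusted over all 26773 probe sets by Benjamini-Hochberg at 0.05. The fit was tested on simulated arrays with independent noise in each probe set, a setting that lacks the parallel variation of the members. Spread was tested by the same fit to absolute deviations from the group median. Alternatives were other scalings, variance models, array weights, a filter on dim probe sets, other probe set choices, other thresholds, a replicate block, and fits without 1 or 2 arrays. A pseudocount did not apply to log2 values. The number of arrays limits the precision.

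All measured members are named, as are up to 6 genes per pathway list and 3 per cell type list with the smallest p past the threshold, 4 receptor subunits, and the 10 genes most like the members. IFIT5, HERC5, IFNG, IFNB1, STAT3, CD163, MARCO, CLEC4F, CD5L, S100A8, S100A9 and S100A12 fall outside this rule and were chosen after their values were seen. The members and lists were chosen with earlier results of these data known. Deviations of same-numbered steers from their group means correlated between -0.15 and 0.04, so no pairing by number was seen over the whole array. A pairing that moves few genes could not be seen in this way. Promoter sequence was not used here, and 1 further gene fixed for naming is not reported here.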

Additional observations from a re-analysis of the deposited data

Results flagged for a closer look

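Among 62 genes, examined in both phases and so in 124 groups of 8 steers, 4 groups held a steer whose gap to the nearest other took up more of the group's range than Dixon's critical value. Chance gives about 1 such case in 20 groups. IFIT3 read 5.69 in finishing replicate 4, against 5.12 in the next highest finishing steer. LGALS3BP read 9.25 in finishing replicate 5, against 9.63 in the next lowest, and without that steer its difference stayed past the threshold. IRF3 read 7.48 in growing replicate 8, against 7.24 in the next highest. Without that steer its call was lost, but it was lost in 12 of the 16 fits that left out 1 array. LGALS9 read 9.88 in growing replicate 4, against 9.50 in the next highest, and it passed without that steer.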

How the results depend on the processing

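The 7 members lower stayed 7 under quantile normalisation, centring on array medians or on ribosomal protein genes, robust estimation with a mean-variance trend, weighted arrays and both other choices of probe set, with all 7 genes shared each time. The filter on dim probe sets also gave 7, but it removed 5 members, XAF1 among them, and IFI44 passed in its place (adjusted p = 0.0471). At an adjusted p of 0.01 there was 1 member lower, with 319 probe sets lower and 112 higher, and at 0.1 there were 10 members lower and 1247 probe sets higher. The fit with the replicate number as a block, a pairing not seen in the whole-array correlations, gave 4 members lower, 642 probe sets lower and 268 higher. That block ended the calls of IFIH1, IRF9 and HERC6 (adjusted p = 0.0877, 0.0914 and 0.119). Without finishing replicates 5 and 6 there were 2 members lower, 654 probe sets lower and 288 higher. Leaving out 1 array at a time gave 2 to 9 members lower, 0 higher, 858 to 1324 probe sets lower and 410 to 881 higher, against 1151 and 626. In those fits the median member difference ran from -0.446 to -0.309, and the number of members with unequal spread was 0. The test of spread was not run with weighted arrays or robust estimation. No called member changed sign in any fit. Of 385 member differences under the other settings 367 kept their side of the threshold, 14 lost it and 4 gained it. Most of the 385 belong to members not called in the main fit, and all 14 losses fell on called members. The fits without 1 array are not in this tally. Dim members such as IFIT2, IFIT3 and ISG20 had means below the median probe set mean, and the array table holds no detection calls. Low signal may limit what these genes can show, which was not tested. The cause of the lost calls was not tested.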
